A study of Mus musculus with 36 samples.

Results

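Dcn, Gsn, Lum, Pdgfra and Tcf21 mark fibroblasts, and Acta2, Tagln, Myh11, Pdgfrb and Rgs5 mark mural cells, the smooth muscle cells and pericytes that wrap blood vessels. These 10 genes were picked by symbol from 23352 gene entries measured in mouse heart, with earlier results of these data known, and all 10 were found. RNA of the heart apex was sequenced from mice labelled cK15, a knockout of Klf15 (Kruppel-like factor 15, a transcription factor), and from controls with an alpha-MHC cre transgene, whose recombinase acts in heart muscle cells. Hearts were taken every 4 h from 12 am to 8 pm, with 3 libraries per genotype and time, giving 12 groups, 18 libraries per genotype and 36 in all. All animals were male, of strain C57BL/6J, 11 to 12 weeks old and under 12 h light and 12 h dark. The labels do not say which allele or Cre driver the cK15 mice carry, nor whether each library is a separate animal, so the spread behind each p-value is one between libraries and may be technical.

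Fibroblasts of the heart build the collagen matrix between muscle cells. Smooth muscle cells contract around arteries through a cytoskeleton of smooth muscle actin and myosin, and pericytes sit on capillaries inside the same basement membrane as the endothelium. Platelet-derived growth factor (PDGF) acts on both lineages through a pair of related receptor kinases, encoded by Pdgfra, used mainly by fibroblasts, and Pdgfrb, used mainly by mural cells. Serum response factor, with the coactivator myocardin, binds CArG boxes in the promoters of smooth muscle contractile genes.

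Acta2 had the largest genotype difference of the 10 at any single time, so its promoter is shown, with that of Rgs5, the other mural marker in the sequence table used, for comparison. RefSeq windows (GRCm38.p6) were matched for 5 of the 10 markers. The Acta2 window is chr19:34255324-34255623 on the minus strand and the Rgs5 window chr1:169655251-169655550 on the plus strand, each 300 bases, 5′ to 3′. Capitals mark the letters that match a CArG box (CC, then 6 letters A or T, then GG) with at most 1 letter changed.

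Acta2: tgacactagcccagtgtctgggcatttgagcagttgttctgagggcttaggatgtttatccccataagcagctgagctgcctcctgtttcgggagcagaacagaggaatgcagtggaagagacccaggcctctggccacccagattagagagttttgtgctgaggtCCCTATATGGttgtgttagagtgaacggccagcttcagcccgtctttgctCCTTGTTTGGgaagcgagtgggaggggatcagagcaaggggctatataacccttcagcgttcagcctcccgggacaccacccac

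Rgs5: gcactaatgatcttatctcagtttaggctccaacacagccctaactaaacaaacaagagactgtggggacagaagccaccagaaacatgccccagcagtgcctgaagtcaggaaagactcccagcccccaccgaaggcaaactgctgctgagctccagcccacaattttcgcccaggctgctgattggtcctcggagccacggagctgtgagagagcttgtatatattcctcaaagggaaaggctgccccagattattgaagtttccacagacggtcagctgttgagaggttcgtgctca

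The Acta2 window held no exact CArG box and 2 matches with at most 1 letter changed, CCCTATATGG and CCTTGTTTGG, whose first bases lie at -84 and -34 when the annotated start base is 0. Both strands were searched, and 21.1% of 32851 promoter windows of this length held such a near match, against 1.63% for an exact one. Acta2 also held CACCC, a short core recognised by Kruppel-like factors, at -114 and 43, a motif found in 57.5% of windows. TATAA occurred once in the Acta2 window, with its first base at 10, after the annotated start, and was found in 24.9% of windows. CACGTG, bound by the clock factors, was not in the Acta2 window (7.15% of windows). None of these letters occurred in the Rgs5 window. A match describes letters and not a bound site.

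The libraries formed 2 sets by the structure of their low values. A low gene here is one above 0 in fewer than 24 libraries. In 24 libraries the FPKM (fragments scaled by gene length and library total) of low genes often lay on shared steps. Whole multiples of a step were checked for Tcf21 and Klf15 only. The ratio of 2 of these 24 libraries fell in a single window of 0.006 (natural log) for a median of 50.2% of low genes (276 pairs). For the other 12 libraries this share had a median of 9.14% (66 pairs), and between the sets 1.99% (288 pairs). The 12 comprised 1 library of every group, and in them the top 10 genes held 16.1 to 17.7% of all FPKM, compared with 21.7 to 25.0% in the 24. The cause of the sets was not tested, and averaged results of most markers are also given for the 24 and the 12 alone. Summed, the heart muscle markers stood far above those of every other cell type, with Myl2 alone between 29700 and 71845 FPKM. Single ones did not always, as Ryr2 averaged 513.5 FPKM in control, below Gsn at 908.8 FPKM. Ttn was listed at 0 in all 36 libraries, so a 0 is not always absence. Klf15 lay between 0.406 and 2.91 FPKM in control and at or below 0.326 FPKM in cK15, listed at 0 in 13 of 18 libraries.

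Dcn, Gsn, Lum and Pdgfra were lower in cK15 hearts than in control when the genotypes were averaged over the 6 times (by 0.18 to 0.31 on the log2 scale). That is 4 of the 5 fibroblast markers, and with Acta2 it made 5 of the 10 markers that fell and none that rose. The cK15 mean of Acta2 was lower at 4 of 6 times, with differences from -1.35 at 4 pm to 0.42 at 8 pm. Of all 10601 genes tested, 11.2% passed the same threshold (limma adjusted p under 0.05), 7.19% lower and 4.06% higher, and the median change over all genes was -0.012. In bulk tissue, fewer cells of a type and less RNA per cell cannot be told apart. Fold changes are differences of log2(FPKM + 1), which understates the change of low genes.

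**Figure D1:**
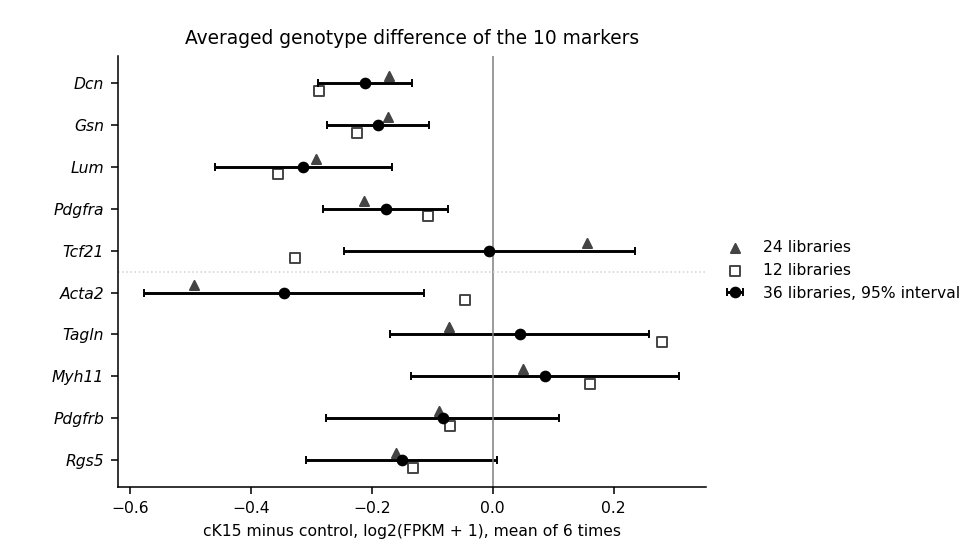
Genotype difference of each marker, averaged over 6 times: points show the difference of log2(FPKM + 1), cK15 minus control, in all 36 libraries with its 95% interval, and triangles and squares show it in the 24 and the 12 libraries. Dcn, Gsn, Lum and Pdgfra lie below 0 in all 3, whereas Acta2 is at -0.49 in the 24 and -0.05 in the 12.

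Dcn encodes decorin, a small leucine-rich proteoglycan that binds collagen fibrils. It spanned 478 to 646 FPKM in control (median 542) and 422 to 539 FPKM in cK15 (median 472). The ranges overlapped, but the cK15 mean was lower at 6 of 6 times, and all cK15 libraries were under all control ones at 4 am, 8 am, 4 pm and 8 pm. The mean went from 549 ± 47.4 to 474 ± 37.8 FPKM (SD, n = 18 each), a log2 change of -0.21 (SE 0.038; limma adjusted p = 0.000225). It was -0.17 in the 24 libraries (limma adjusted p = 0.0255) and -0.29 in the 12 (limma adjusted p = 0.00152).

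Gsn encodes gelsolin, which severs actin filaments and is also secreted. It was the most abundant of the 10, at 799 to 1051 FPKM in control (median 902) and 679 to 947 FPKM in cK15 (median 813). The groups overlapped over all times and were separate at 4 am and 4 pm, and the cK15 mean was lower at 6 of 6 times. Gsn had means of 909 ± 66.3 FPKM in control and 797 ± 67.0 FPKM in cK15 (SD, n = 18 each), and fell (log2 change -0.19, SE 0.041; limma adjusted p = 0.00198). It was -0.17 in the 24 libraries (limma adjusted p = 0.0184) and -0.23 in the 12 (limma adjusted p = 0.00512). The gene at 35256359 to 35307902 on chromosome 2 contains an unclassified transcript, Gm43128, on the same strand, and how reads there were counted is not known.

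Lum encodes lumican, a relative of decorin, and lies beside it on chromosome 10 (97565501 to 97572703, against 97479500 to 97518163 for Dcn). Lum ranged from 8.26 to 15.4 FPKM in control (median 11.7) and from 6.02 to 11.3 FPKM in cK15 (median 9.41). All 3 cK15 libraries lay below the control libraries at 4 am, 8 am and 4 pm, while at 12 am the cK15 mean was the higher, at 9.84 against 8.89 FPKM. Lum fell by 0.31 on the log2 scale (SE 0.072; limma adjusted p = 0.00319), the largest change among the fibroblast markers. It was -0.29 in the 24 libraries (limma adjusted p = 0.0352), and the call was lost in the 12 (-0.36, limma adjusted p = 0.0658).

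Pdgfra, the receptor for PDGF-A and related ligands, ranged from 10.1 to 19.2 FPKM in control (median 13.4) and from 9.38 to 13.98 FPKM in cK15 (median 11.9). The highest value, 19.2 FPKM, was a control library of 8 am, and the genotypes were separate at 4 am only. The averaged change was -0.18 (SE 0.051; limma adjusted p = 0.0201), with -0.21 in the 24 libraries (limma adjusted p = 0.0268) and -0.11 in the 12 (limma adjusted p = 0.424). Pdgfra was the least stable of the 4 calls: it was lost without cK15 replicate 1 (limma adjusted p = 0.0859), cK15 replicate 4 (0.159) or control replicate 3 (0.236), and under both rescalings tried (0.0744 and 0.0851). The gene lies on chromosome 5 at 75151322 to 75198206 and overlaps 2 transcripts on the opposite strand, Gm42802 and Gm42803, and the microRNA gene Mir7025.

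Tcf21, a transcription factor of the fibroblast lineage, was near the floor of the measurement. It was at 0 to 1.197 FPKM in control (median 0.793) and 0 to 1.72 FPKM in cK15 (median 0.592), and listed at 0 in 2 and 1 libraries. In the 24 libraries with steps, all 24 values were whole multiples of 1 step within 0.02, namely 0 to 4 steps in control (sum 29 over 12 libraries) and 0 to 6 steps in cK15 (sum 35 over 12). Its mean, 0.698 FPKM, was under the filter of 1 FPKM, and it was added to the tested genes. The averaged difference was -0.01 (95% interval -0.25 to 0.24; limma adjusted p = 0.988), positive under both rescalings and in the 24 libraries (0.16) and negative in the 12 (-0.33). The interval includes the change of Pdgfra, and the log2(FPKM + 1) scale shrinks changes at so low a level. Tcf21, on chromosome 10 at 22817263 to 22820143, overlaps the antisense gene Gm10824 and may share reads with it where counting ignored strand.

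**Figure D2:**
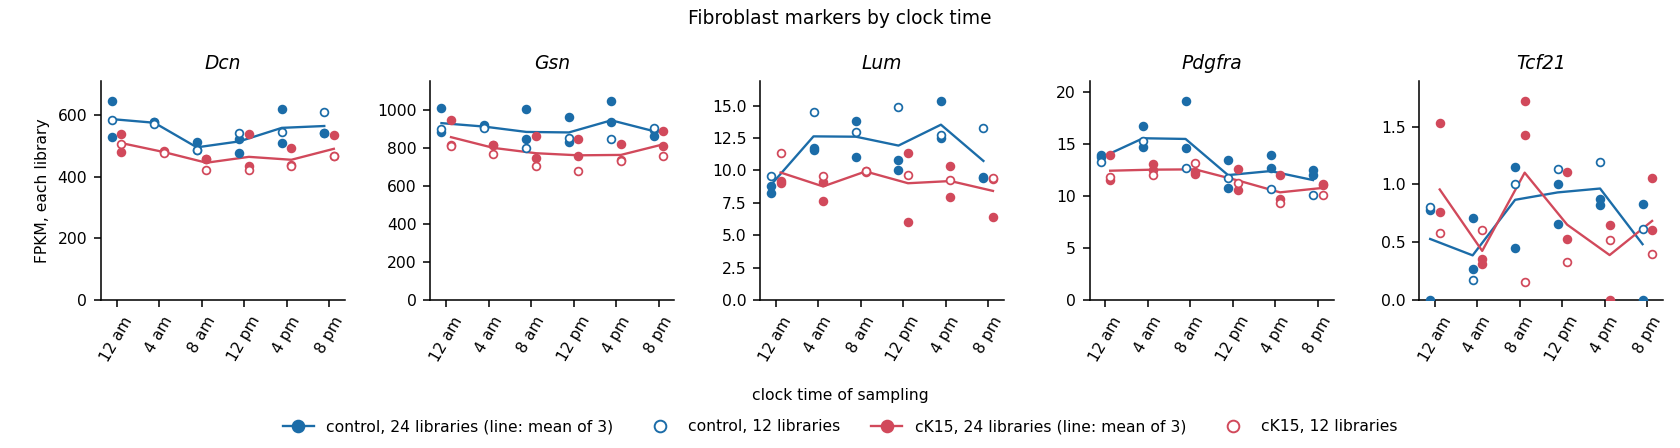
FPKM of the 5 fibroblast markers in each library by clock time, control in blue and cK15 in red. Filled points are the 24 libraries, open points the 12, and lines join the means of 3. Dcn and Gsn run below control at every time, and Tcf21 stays at or below 1.72 FPKM.

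Of 23 other fibroblast genes tested, 9 fell in cK15 hearts and none rose, beside 7.19% lower and 4.06% higher among all genes, with a median change of -0.22. The calls of smallest p included matrix genes: Col3a1, which encodes type III collagen, went from 153 ± 48.6 to 108 ± 30.8 FPKM (SD, n = 18 each; log2 change -0.48, SE 0.052; limma adjusted p = 5.6e-08). Dpt, which encodes the matrix protein dermatopontin, fell by 0.36 (SE 0.049; limma adjusted p = 2.58e-06). The secreted glycoprotein gene Fstl1 fell by 0.31 (limma adjusted p = 0.00124) and Col1a1, type I collagen, by 0.50 (SE 0.12; limma adjusted p = 0.00475). This list and those below were chosen with earlier results of these data known, and their counts are descriptions.

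Markers of some other cell types moved with the fibroblast genes. Of 8 macrophage genes 7 were lower in cK15 hearts, beside 7.19% of all genes, with a median change of -0.25, and their summed level was 173 to 268 FPKM in control and 153 to 246 FPKM in cK15. No endothelial gene of 8 passed with limma, although 6 had an unadjusted p under 0.05 (median -0.11, summed 1269 to 2268 and 1124 to 2083 FPKM). Of all 10601 genes 2464 had an unadjusted p under 0.05 for this average. In addition, 1 of 5 mesothelial or epicardial genes fell (summed 11.6 to 27.3 and 10.3 to 23.7 FPKM). Of 8 heart muscle genes only Ryr2 passed, higher in cK15, with a list median of 0.08 and sums of 53130 to 102500 and 50970 to 112900 FPKM. Of 3 atrial genes Myl7 fell (-0.77, limma adjusted p = 0.0403), while Nppa was at 0.56 (limma adjusted p = 0.059) and Myl4 at -0.17, neither of which passed, and adipocyte markers summed to at most 3.53 FPKM in any library. The summed fibroblast markers were 1310 to 1701 FPKM in control and 1123 to 1511 FPKM in cK15. The part of these other cells in the fibroblast result was not tested.

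Acta2 encodes the actin of smooth muscle and of activated fibroblasts, and lies on chromosome 19 at 34240336 to 34255585. Its 24 h rhythm passed the test in control hearts and not in cK15 hearts, the difference between these rhythms did not pass, and the genotypes differed at 4 pm. In control libraries the 3 values were 37.2, 73.0 and 81.9 FPKM at 12 am and 66.2, 67.8 and 90.3 FPKM at 4 am. They were 72.9, 129 and 140 FPKM at 8 am and 119, 149 and 153 FPKM at 12 pm. At 4 pm they stood at 117, 128 and 132 FPKM, and at 8 pm at 59.0, 61.6 and 75.7 FPKM. The control libraries of 12 pm and 4 pm were thus all above those of 12 am, 4 am and 8 pm.

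In cK15 hearts Acta2 measured 61.1, 61.4 and 73.2 FPKM at 12 am, 51.2, 67.6 and 82.5 FPKM at 4 am, and 52.9, 85.4 and 89.6 FPKM at 8 am. The 12 pm values were 60.2, 122 and 124.5 FPKM. They were 39.9, 47.9 and 59.8 FPKM at 4 pm and 73.7, 81.3 and 112 FPKM at 8 pm. Here 4 pm was the lowest time, every library of it below every library of 12 am, whereas the 12 pm libraries were spread from 60.2 to 124.5 FPKM.

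At 4 pm the groups did not overlap, and Acta2 was at 49.2 FPKM in cK15 against 126 FPKM in control (group means, n = 3 each; log2 change -1.35, SE 0.28, 95% interval -1.92 to -0.79; limma adjusted p = 0.00544). At that time 1.31% of genes passed, and Acta2 was the only 1 of the 10 markers that did. It was -1.49 in the 24 libraries (limma adjusted p = 0.031). The call was lost without cK15 replicate 3 (-1.21, limma adjusted p = 0.0679) or control replicate 4 (-1.32, limma adjusted p = 0.0582). At 8 am and 12 pm the values were -0.56 and -0.51 and did not pass (limma adjusted p = 0.674 and 0.953), and at 8 pm the sign was the other way (0.42, limma adjusted p = 0.852).

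A curve with a 24 h period described Acta2 in control with an amplitude of 0.64 on the log2 scale (SE 0.10) and a peak at 12.0 h, that is noon (limma adjusted p = 0.00169). In cK15 the amplitude was 0.10 (SE 0.14; limma adjusted p = 0.999). Of all genes 2.8% were called rhythmic in control and 1.08% in cK15, and Acta2 was the only marker called in either. The rhythm was also called in the control libraries of the set of 24 (amplitude 0.78, limma adjusted p = 0.00234), but not in the 12 (0.37, limma adjusted p = 0.667), nor without control replicate 3 (0.50, limma adjusted p = 0.207) or control replicate 4 (0.64, limma adjusted p = 0.0561).

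The difference in rhythm between the genotypes did not pass over all genes: its unadjusted p was 0.0134 for Acta2 and its limma adjusted p was 1. No gene passed this test with limma (0% of those tested), and 291 had an unadjusted p under 0.05. The test for any genotype by time interaction gave Acta2 an unadjusted p of 0.00211 and a limma adjusted p of 1, with 1 gene of 10601 (0.00943%) past the threshold and 205 under an unadjusted 0.05. The rhythms of the genotypes are thus not shown to differ. Averaged over the times, Acta2 fell by 0.35 (SE 0.11; limma adjusted p = 0.045) from 97.3 ± 35.7 to 74.8 ± 24.7 FPKM (SD, n = 18 each). This averaged call was close to the threshold and was lost in 10 of 18 alternatives, among them 5 of the 6 that left out 1 replicate number (limma adjusted p up to 0.216) and the 12 libraries (-0.05, limma adjusted p = 0.941).

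**Figure D3:**
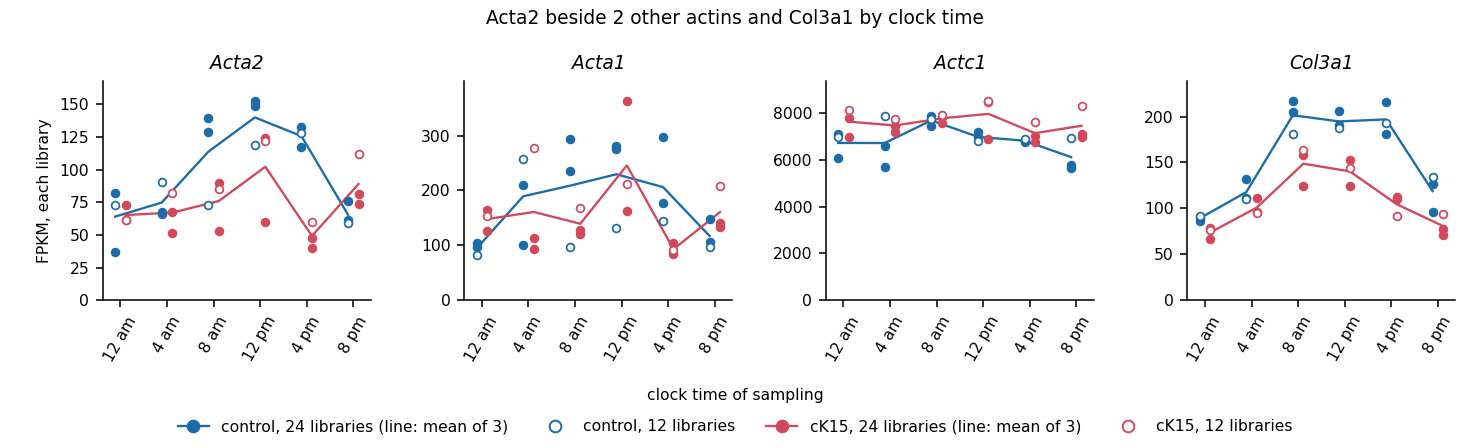
FPKM of Acta2, of the actins Acta1 and Actc1 and of the collagen gene Col3a1 in each library by clock time, control in blue and cK15 in red, filled points for the 24 and open points for the 12 libraries. At 4 pm Acta2 is at 117 to 132 FPKM in control and 39.9 to 59.8 FPKM in cK15, while Actc1 stays near its level at other times.

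Acta2 has close copies among the actins. Its coding sequence of 1134 bases was 85.4% identical to that of Acta1, the skeletal muscle actin, with a longest identical run of 29 bases, and 82.5% identical to that of Actc1, the cardiac actin, with a run of 23. Actc1 was far more abundant, at 6851 ± 691 FPKM in control and 7585 ± 561 FPKM in cK15 (SD, n = 18 each), and rose by 0.15 (limma adjusted p = 0.0177), in the direction opposite to Acta2. At 4 pm Actc1 differed by 0.07 (limma adjusted p = 0.982). Acta1 at 4 pm was 145, 177 and 297 FPKM in control and 83.7, 91.4 and 104 FPKM in cK15, groups that did not overlap, with a log2 difference of -1.08 (SE 0.40; limma adjusted p = 0.293). Actg2, the enteric smooth muscle actin, stayed at or below 2.39 FPKM. The sources used here do not say how reads shared between actins were counted, and their part in the Acta2 values was not tested.

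Tagln and Myh11, the other contractile markers, passed no genotype or rhythm test with limma and had no unadjusted p under 0.05 in any of them. Tagln encodes transgelin, an actin-binding protein, and ranged from 9.59 to 21.7 FPKM in control (median 13.2) and from 10.2 to 21.2 FPKM in cK15 (median 14.5). The averaged difference was 0.04 (95% interval -0.17 to 0.26; limma adjusted p = 0.87), -0.07 in the 24 libraries and 0.28 in the 12 (limma adjusted p = 0.717 and 0.237). At 4 pm it was 13.0 FPKM in control and 13.7 FPKM in cK15. Tagln lies on chromosome 9 at 45929628 to 45936058 and overlaps Pcsk7 and Gm48529 on the opposite strand.

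Myh11, the smooth muscle myosin heavy chain (chromosome 16, 14194527 to 14292188), ranged from 5.56 to 17.3 FPKM in control (median 7.92) and from 5.74 to 13.4 FPKM in cK15 (median 8.81). The averaged difference was 0.09 (95% interval -0.14 to 0.31; limma adjusted p = 0.722), and at 4 pm it was 0.24 (limma adjusted p = 0.971). The intervals of both genes reach further upward than downward, and neither shows the genotypes to be alike.

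Control replicates 3 and 4 at 8 am were above replicate 2 in Myh11, Tagln and Acta2, and below it in Pdgfrb and Rgs5. Myh11 was at 15.4 and 17.3 FPKM in them, against 6.38 FPKM in replicate 2, and Tagln at 21.1 and 21.7 FPKM, against 10.3 FPKM. Acta2 was at 129 and 140 FPKM, against 72.9 FPKM. Pdgfrb was at 19.7 and 20.5 FPKM, against 22.8 FPKM, and Rgs5 at 170.9 and 190.4 FPKM, against 219.5 FPKM. Replicate 2 of that group belongs to the 12 libraries and replicates 3 and 4 to the 24. In the 24 libraries alone the 8 am genotype difference of Myh11 was -0.82 and did not pass (limma adjusted p = 0.0758).

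Pdgfrb, the receptor for PDGF-B, and Rgs5, a regulator of G-protein signalling that is abundant in pericytes, did not pass in all 36 libraries. Pdgfrb lay between 13.2 and 22.8 FPKM in control (median 17.3) and between 10.1 and 21.9 FPKM in cK15 (median 17.2), an averaged difference of -0.08 (95% interval -0.28 to 0.11; limma adjusted p = 0.686). Rgs5, on chromosome 1 at 169655501 to 169695813, lay between 152 and 234 FPKM in control (median 169.8) and between 129 and 211 FPKM in cK15 (median 154). Its averaged difference was -0.15 (95% interval -0.31 to 0.01; limma adjusted p = 0.243).

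Rgs5 and Pdgfrb differed in level between the library sets. In cK15 hearts Rgs5 was at 129 to 165 FPKM in the 24 libraries and at 185 to 211 FPKM in the 12, which do not overlap, and in control at 152 to 190.4 and at 187 to 234 FPKM. Pdgfrb was at 13.2 to 20.5 and 19.1 to 22.8 FPKM in control, and at 10.1 to 19.7 and 17.6 to 21.9 FPKM in cK15. Within the 24 libraries Rgs5 was lower in cK15, by -0.16 (SE 0.038; limma adjusted p = 0.0102), and in the 12 the difference was -0.13 (limma adjusted p = 0.216). With a term for the set over all 36 libraries it was -0.15 (limma adjusted p = 0.000273), so the count of markers that fell became 6 of 10. Of all 10601 genes, that fit called 1265 lower and 904 higher, against 762 and 430 as reported. Rgs5 also passed without cK15 replicate 1 (-0.25, limma adjusted p = 0.0272), and over all 18 alternatives it lay between -0.25 and -0.05. Leaving out cK15 replicate 1 drops most cK15 libraries of the 12, where Rgs5 was higher, and keeps all control libraries of the 12. That fit therefore mixes the set with the genotype. Myh11 ran the other way between the sets, at 6.10 to 17.3 FPKM in the 24 and 5.56 to 8.86 FPKM in the 12 control libraries.

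**Figure D4:**
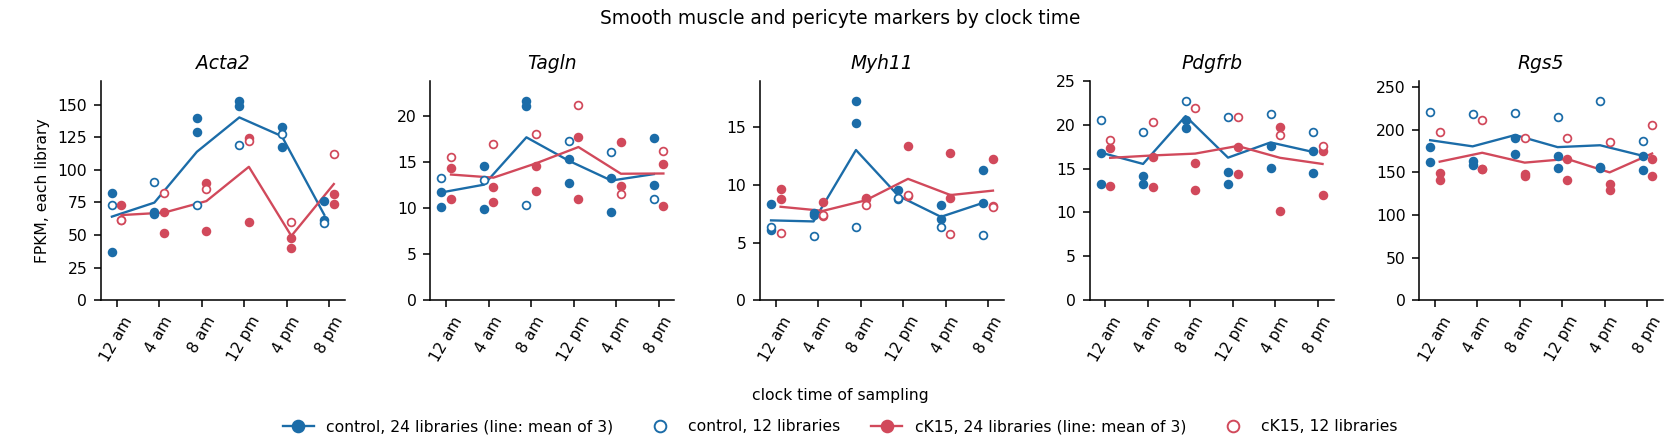
FPKM of the 5 smooth muscle and pericyte markers in each library by clock time, control in blue and cK15 in red, filled points for the 24 and open points for the 12 libraries, lines joining means of 3. Open points of Rgs5 lie at 185 to 234 FPKM, above nearly all filled ones, and the 2 high Myh11 libraries at 8 am are filled control points.

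The counts of other mural genes were near the share of all genes called lower, 7.19%. Of 10 other smooth muscle genes 1 fell, Cald1, which encodes the actin-binding caldesmon (-0.16, limma adjusted p = 0.0288), and the list median was -0.07. Of 12 other pericyte genes 1 fell, Mcam, a cell adhesion molecule (-0.19, limma adjusted p = 0.00991), with a median of -0.05. No PDGF ligand of 3 passed with limma (Pdgfa, Pdgfb and Pdgfd between -0.07 and 0.15, unadjusted p between 0.12 and 0.94). Of 5 smooth muscle transcription factors and coactivators 1 passed, and it was higher: Myocd, which encodes myocardin, went from 9.55 ± 1.37 to 11.1 ± 1.32 FPKM (SD, n = 18 each; log2 change 0.20, SE 0.051; limma adjusted p = 0.00801). Srf differed by 0.29 and did not pass (limma adjusted p = 0.0857). Myocd is expressed by heart muscle cells as well as smooth muscle cells, and its source was not tested.

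By single time, the fibroblast markers were separate between the genotypes most often at 4 am and 4 pm. At 4 am Dcn, Gsn, Lum and Pdgfra were lower in every cK15 library than in every control library, 4 of 10 markers, against 6.96% of all genes. At 4 pm Dcn, Gsn, Lum, Tcf21 and Acta2 were, 5 of 10, against 7.41%. At 8 am there were 2 (Dcn and Lum, against 6.98%), at 8 pm 1 (Dcn, against 6.23%), and at 12 am and 12 pm none (against 7.76% and 6.29%).  With limma, no marker but Acta2 passed at any single time, while 1.22% of genes did at 12 am, 1.13% at 4 am, 1.07% at 8 am, 0.755% at 12 pm, 1.31% at 4 pm and 1.13% at 8 pm. The number of markers with an unadjusted p under 0.05 was 1, 3, 1, 2, 4 and 1 at these times. Among all 10601 genes it was 768, 832, 793, 616, 894 and 814.

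Replicate numbers bear on these calls, since libraries of the same number and time deviated together across genotypes. The libraries of each such pair also lay in the same library set, whereas pairs of different numbers often mixed the sets. The part of the set in this shared deviation was not tested. With number and time as a shared block, a fit chosen after seeing the data, the same 5 markers fell on average, among 2044 genes, and 4 passed at 4 pm: Dcn (-0.29, limma adjusted p = 0.0307), Gsn (-0.32, limma adjusted p = 0.0196), Lum (-0.53, limma adjusted p = 0.0335) and Acta2 (-1.40, limma adjusted p = 0.000396). Of all genes, 73 to 318 passed at 4 pm over 17 alternatives, this fit among them, against 139 as reported. With genotype and number together as a replicate block over all times, so that the genotypes shared no block, 348 genes passed on average. Dcn and Gsn then remained (limma adjusted p = 0.0158 and 0.039), and Lum, Pdgfra and Acta2 did not (0.142, 0.24 and 0.487).

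No fibroblast marker was called rhythmic in either genotype with limma. Dcn, Pdgfra and Tcf21 had an unadjusted p under 0.05 in control, as had 1487 of all 10601 genes. In cK15 Pdgfra had, as had 949 of all genes. Pdgfra had an amplitude of 0.21 in control (SE 0.056) and 0.14 in cK15 (SE 0.045), with peaks at 5.11 h and 4.80 h (limma adjusted p = 0.117 and 0.377). Its control rhythm passed when the replicate block was added (limma adjusted p = 0.0381) or the library set was a term (limma adjusted p = 0.0253). Dcn had an amplitude of 0.11 in control, with a peak at 22.6 h (limma adjusted p = 0.271). Among the other fibroblast genes, Col3a1 was called in both genotypes (limma adjusted p = 3.43e-06 and 1.99e-05), and at 4 pm it was at 181, 193 and 216 FPKM in control and 91.2, 110.5 and 112 FPKM in cK15 (log2 change -0.91, limma adjusted p = 3.04e-05).

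Markers were compared in pairs over libraries. Over the 24 libraries, 10 of 45 pairs passed an adjusted permutation p of 0.05 by Pearson's r and 9 by Spearman's rho (100000 resamples, Benjamini-Hochberg over the 45 pairs). By r they were 5 of 10 pairs of fibroblast markers, 3 of 10 pairs of mural markers and 2 of 25 pairs between the types, and by rho 4, 2 and 3, with median r of 0.48, 0.40 and 0.07. These libraries share genotypes and times, and r holds differences between both. Over the 12 libraries 1 pair passed, Dcn and Gsn.

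Dcn and Gsn varied together, with r = 0.83 and rho = 0.82 over the 24 libraries (permutation adjusted p = 0.000225 and 0.00045), 0.76 without the 2 libraries farthest from the median of Dcn, and r = 0.98 over the 12. Tagln and Myh11 gave r = 0.85 and rho = 0.76 (permutation adjusted p = 0.000225 and 0.00045), 0.75 without 2 libraries, and 0.80 over the 12. The raw permutation p of both r values was 1e-05, the smallest that 100000 resamples can give. No pair with Tcf21 passed, its r ranging from 0.00 with Dcn to 0.27 in size with Pdgfrb and Acta2.

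Acta2 passed with Rgs5 (r = 0.54, rho = 0.59; permutation adjusted p = 0.0305 and 0.0191) and not with Tagln (r = 0.41, adjusted p = 0.145) or Myh11 (r = 0.39, adjusted p = 0.169), and the difference between these r values was not tested. Over the 12 libraries, where none of the 3 pairs passed, the order was the other way, with r = 0.70 for Tagln, 0.69 for Myh11 and 0.44 for Rgs5. The pairs between types that passed by r were Rgs5 with Pdgfra (r = 0.61, adjusted p = 0.0171) and with Gsn (r = 0.53, adjusted p = 0.0369), and Rgs5 with Dcn passed by rho alone (rho = 0.58, adjusted p = 0.0204; r = 0.48, adjusted p = 0.0629). Myh11 and Pdgfrb had r = 0.56 (adjusted p = 0.0276), which went to 0.34 without 2 libraries, with rho = 0.39 (adjusted p = 0.201), so that relation rests on those libraries.

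**Figure D5:**
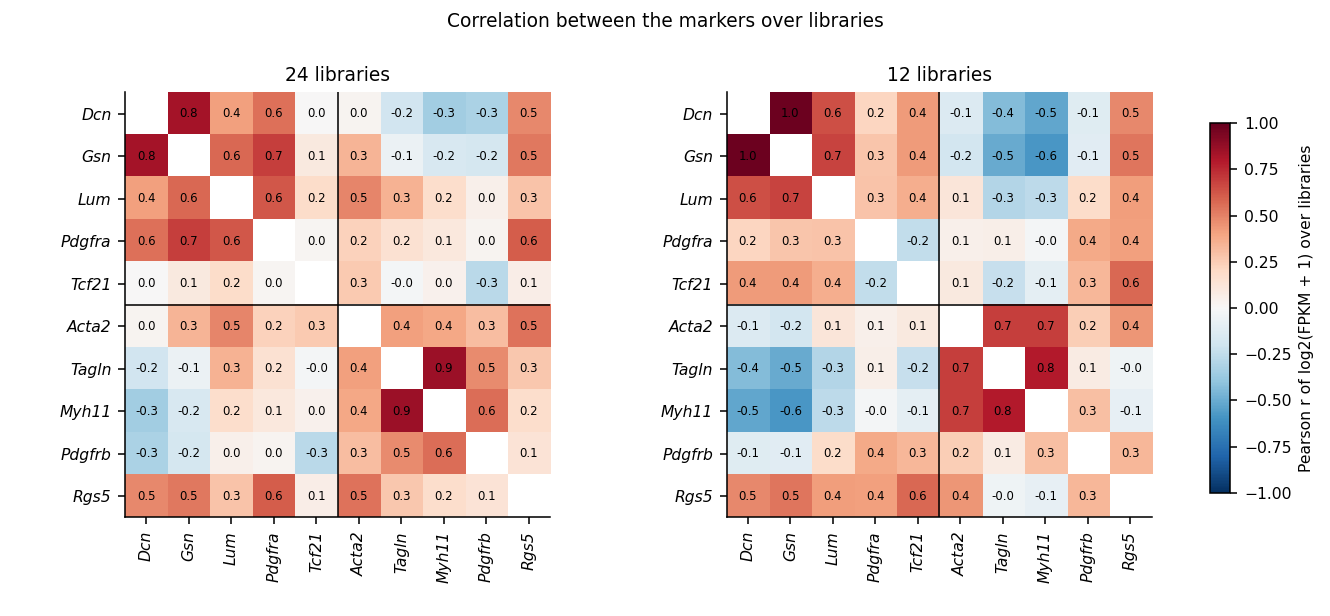
Pearson r of log2(FPKM + 1) for each pair of markers over the 24 libraries on the left and the 12 on the right, with black lines between fibroblast and mural markers. The highest r in the 24 is 0.85 for Tagln with Myh11, followed by 0.83 for Dcn with Gsn.

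The 2 genes most like each marker over the 24 libraries, by Pearson's r of log2(FPKM + 1) among all genes tested, were often not markers of the same cell type. Dcn was most like Sdhb (r = 0.87) and Adk (0.85), and Gsn like Tango2 (0.83) and Scp2 (0.82). Lum was most like Ccdc80 (0.84) and Fstl1 (0.80), and Pdgfra like Eltd1 (0.79) and Plin5 (0.74). Tcf21 reached no more than 0.67 (Dleu2) and 0.64 (Tpst1), which were -0.02 and 0.29 over the 12 libraries.

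Among the mural markers, Acta2 was most like Acta1 (r = 0.84, and 0.50 over the 12 libraries) and Pfkp (0.76). Tagln was most like Myl9 (0.74) and Flna (0.74), both on the list of smooth muscle genes. Myh11 was most like Tbx20 and Sorbs2 (0.77 each), Pdgfrb like Ece1 (0.89) and Tln1 (0.87), and Rgs5 like Hspb6 (0.85). These r values were picked as the highest of all genes and are a description. Over the 12 libraries the r values of the listed genes with their markers ran from -0.02 (Dleu2) to 0.89 (Eltd1), with Pfkp at 0.18, Tln1 at 0.28, Tbx20 at 0.30 and Fstl1 at 0.37.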

How the data were processed

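Total RNA of 36 heart apex samples was depleted of ribosomal RNA and sequenced as stranded 100 bp pairs, per the labels' protocols. The authors deposited FPKM per gene symbol and library in a table for each genotype, and, per the submitters' processing notes, used GSNAP, HTSeq and mm10. The sources used here do not give versions, annotation, use of strand or absolute depth. Relative depth, from the steps of low values, spanned 1.63-fold among 24 libraries. Labels of 12 am were read as midnight.

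Models were fitted to log2(FPKM + 1) in limma 3.58.1 (R 4.3.3) for 10599 genes with a mean of at least 1 FPKM, plus Tcf21 and Klf15, with trended and robust moderation and Benjamini-Hochberg adjustment over all 10601. Means of 12 groups gave genotype differences. A cosine and sine of 24 h within each genotype gave rhythms, with amplitudes from mean to peak. Correlations used scipy 1.17.1 and numpy 2.4.6. Scripts were tested on simulated data. The members and lists were chosen with earlier results of these data known. Named are the 10 markers, up to 4 called genes of smallest adjusted p per list, the 2 genes most like each marker (1 of them is not reported here), Klf15 and close actins. The PDGF ligands, Srf, Nppa, Myl4, Myl2 and Ttn were named after their values were seen.

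Replicate numbers in the labels were checked for pairing. Deviations from group means correlated over 0.1 in 12 of 12 same-number pairs across genotypes at 1 time (0.157 to 0.508) and in 14 of 42 pairs of different numbers (-0.36 to 0.54), and in 70 of 90 same-number pairs across times. The same-number pairs across genotypes all lay within the same library set, so this check does not separate number from set. The consensus correlation was 0.41 for number and time together and 0.218 for genotype and number together. Alternatives were pseudocount, filter, rescaling, moderation, block, library set and leaving out each replicate number. Coordinates are GRCm38.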

Additional observations from a re-analysis of the deposited data

How the results depend on the processing

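Dcn and Gsn were called lower on average in all 18 alternatives, Lum in 16, Pdgfra in 11 and Acta2 in 8. Of 10 markers 5 passed as reported, 3 with median-ratio rescaling, 2 with the replicate block, 2 in the 12 libraries and 3 to 5 without 1 replicate number (3 without cK15 replicate 4 or control replicate 3). The 1192 genes called on average (430 higher, 762 lower) became 606 higher and 638 lower with median-ratio rescaling and 632 and 609 with quantile normalization, so the share of higher calls went from 36.1% to 48.7% and 50.9%. They numbered 348 with the replicate block, 2044 with the block shared between genotypes (added after seeing the data), 2169 with a term for the library set, 576 in the 12 libraries and 763 to 1269 without 1 replicate number (763 without control replicate 3).

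At 4 pm 1 marker passed as reported, 3 with the term for the set (Gsn, Acta2 and Rgs5), 4 with the shared block and 0 to 1 without 1 replicate number. At 8 am the term for the set gave 1 (Rgs5, limma adjusted p = 0.0443). All genes that passed at 4 pm numbered 139 as reported and 73 to 318 over 17 alternatives. At 8 am these counts were 113 and 67 to 240. For the control rhythm 1 marker passed as reported, 2 with the replicate block and 2 with the term for the set (Acta2 and Pdgfra), 0 in the 12 libraries and 0 to 1 without 1 replicate. Rhythmic genes in control numbered 297 as reported, 470 with the replicate block, 730 with the term for the set, 46 in the 12 libraries, 143 by an F test between the 6 time means and 86 to 152 without 1 replicate. Marker pairs past the threshold fell from 10 to 1 in the 12 libraries. The blocks changed no other call of a marker. The cause of these shifts was not tested, except that fewer libraries enter the fits that leave some out.

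The sign of Tcf21, -0.01 as reported, was positive with a pseudocount of 0.1 (0.023) or 5 (0.00041), with median-ratio rescaling (0.0064), with quantile normalization (0.0486), with the shared block (0.0218) and in the 24 libraries (0.16), and ran from -0.153 to 0.0819 without 1 replicate number. Tagln was -0.0732 in the 24 libraries, 0.28 in the 12, and ran from -0.0491 to 0.105 without 1 replicate number. Myh11 ran from -0.0227 to 0.182 and Pdgfrb from -0.211 to 0.0928 without 1 replicate number. None of these passed. Rgs5 kept its sign and ran from -0.247 to -0.047 over the alternatives, passing in 3 of 18. Leaving out cK15 replicate 1 or control replicate 2 also unbalances the library sets between the genotypes. Depth is unknown, and the values of Tcf21, at a few steps per library, limit what could be seen of it.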
